A study of Mus musculus with 16 samples.

Results

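The genes described here are the cytochrome P450 (Cyp) genes of families 1 to 4, which encode most of the liver enzymes that oxidise drugs, steroids, bile acids and fatty acids. A gene was taken when its only annotated symbol was Cyp, a family number from 1 to 4, 1 subfamily letter and a gene number. Where a gene had several probe sets, the one with the highest mean over all arrays stood for it. This gave 65 genes of the 18820 with a single symbol: 3 in family 1, 44 in family 2, 6 in family 3 and 12 in family 4, in 20 subfamilies. RefSeq annotates 64 of them as protein coding and Cyp2d13 as a transcribed pseudogene. Left out were 8 probe sets that carry several gene symbols. They are the only ones for 7 genes with symbols of this form (Cyp2a4, Cyp2c40, Cyp2c69, Cyp3a59, Cyp4a10, Cyp4a32 and Cyp4v3). The same holds for Cyp3a41a and Cyp3a41b, whose symbols end in a letter. Also left out were 4 genes with a single-symbol probe set whose symbols have another form.

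P450 enzymes are haem proteins of the endoplasmic reticulum that take electrons from the reductase encoded by Por. Families 1 to 3 handle mainly foreign compounds and steroids, and family 4 hydroxylates fatty acids and eicosanoids. Their genes are switched on through ligand-activated receptors: the aryl hydrocarbon receptor for Cyp1, the nuclear receptors CAR and PXR for Cyp2b, Cyp2c and Cyp3a, and PPARα for Cyp4a. In the adult liver many of these enzymes lie around the central vein, Cyp2f2 lies around the portal vein, and several, such as Cyp2b9, Cyp2b13 and Cyp2d9, are set by sex through growth hormone.

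The promoters of 6 genes are shown because they carry the main contrasts of these data: Cyp2b10 and Cyp2b13 are neighbouring members with opposite differences from WT, Cyp2b9 is a near copy of Cyp2b13 in this window, and Cyp2c29, Cyp2c70 and Cyp2f2 rose in the RIPK3 triple KO against TRAF2/Casp8 KO. Each line gives the 250 bases before the annotated start, from RefSeq on GRCm38.p6, 5′ to 3′ along the gene's strand. Capitals mark matches, on either strand, to 4 motifs: AGGTCA, the hexamer of many nuclear receptors; CAAAGTCCA, an HNF4 site; GCGTG, the core to which the aryl hydrocarbon receptor binds; and TATAAA.
Cyp2b10, chr7:25897408-25897657, plus strand: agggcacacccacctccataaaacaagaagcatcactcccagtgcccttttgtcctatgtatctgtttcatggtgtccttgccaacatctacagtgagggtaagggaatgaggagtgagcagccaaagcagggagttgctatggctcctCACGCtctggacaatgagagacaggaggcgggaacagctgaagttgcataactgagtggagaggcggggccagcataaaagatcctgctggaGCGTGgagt
Cyp2b13, chr7:26061245-26061494, plus strand: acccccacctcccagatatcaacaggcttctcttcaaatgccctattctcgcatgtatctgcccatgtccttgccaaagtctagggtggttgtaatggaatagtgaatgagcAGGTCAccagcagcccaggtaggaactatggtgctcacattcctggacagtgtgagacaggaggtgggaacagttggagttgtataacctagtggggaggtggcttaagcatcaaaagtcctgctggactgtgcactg
Cyp2b9, chr7:26173159-26173408, plus strand: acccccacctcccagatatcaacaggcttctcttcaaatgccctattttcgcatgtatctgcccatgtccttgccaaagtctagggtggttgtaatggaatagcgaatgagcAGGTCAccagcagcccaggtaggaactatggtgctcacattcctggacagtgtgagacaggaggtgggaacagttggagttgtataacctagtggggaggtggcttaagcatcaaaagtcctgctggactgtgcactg
Cyp2c29, chr19:39286835-39287084, plus strand: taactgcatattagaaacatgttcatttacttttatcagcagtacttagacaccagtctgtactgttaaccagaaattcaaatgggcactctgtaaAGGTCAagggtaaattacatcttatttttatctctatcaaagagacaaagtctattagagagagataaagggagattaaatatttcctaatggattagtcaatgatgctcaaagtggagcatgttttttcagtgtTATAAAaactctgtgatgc
Cyp2c70, chr19:40187287-40187536, minus strand: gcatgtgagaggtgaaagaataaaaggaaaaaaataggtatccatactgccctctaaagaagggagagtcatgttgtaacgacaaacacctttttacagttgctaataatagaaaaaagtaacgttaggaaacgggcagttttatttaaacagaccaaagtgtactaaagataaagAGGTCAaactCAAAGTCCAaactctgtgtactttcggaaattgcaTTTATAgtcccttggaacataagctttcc
Cyp2f2, chr7:27119705-27119954, plus strand: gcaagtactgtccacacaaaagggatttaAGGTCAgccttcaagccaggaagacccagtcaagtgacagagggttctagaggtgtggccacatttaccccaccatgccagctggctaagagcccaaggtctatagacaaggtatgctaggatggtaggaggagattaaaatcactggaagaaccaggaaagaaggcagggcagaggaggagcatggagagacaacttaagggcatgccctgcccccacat

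The windows of Cyp2b13 and Cyp2b9 share 248 of 250 bases. With Cyp2b13 as the reference and positions counted from 1 at the first printed base, the differences are C48T and T104C, both outside the AGGTCA hexamer. The Cyp2b10 window aligns to that of Cyp2b13 at 70.0% identity and holds no AGGTCA but a pair of GCGTG matches. Among the shown genes CAAAGTCCA is in the Cyp2c70 window, 64 to 56 bases before the start, beside an AGGTCA at 74 to 69. A window was given for 54 of the 65 genes (61 windows, since some genes have several starts). AGGTCA was in 24.6% of these and in 14.0% of the 32851 windows of all genes, CAAAGTCCA in 9.84% and 0.384%, GCGTG in 19.7% and 28.2%, and TATAAA in 36.1% and 12.4%. The 6 windows with CAAAGTCCA belong to Cyp2c65, Cyp2c67, Cyp2c68, Cyp2c70, Cyp3a11 and Cyp3a16. Within a subfamily the windows are related sequences, so these shares do not count independent promoters, and no motif overlapped another in the windows shown.

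The livers came from 16 male mice aged 7 days on a mixed C57/BL6 - SV129Ola background, 1 mouse per array and 4 per genotype. WT mice were littermates that carry the loxP-flanked alleles and lack Cre. In the TRAF2/Casp-8LPC-KO mice (here TRAF2/Casp8 KO) alfp-Cre, active in hepatocytes and cholangiocytes (the liver parenchymal cells), deletes both Traf2 and the gene of caspase-8. The RIPK3 triple KO (TRAF2/Casp-8LPC-KO/RIPK3-/-) also lacks Ripk3 in every cell of the body, and the IKKβ triple KO (TRAF2/Casp-8/IKKβLPC-/-) also lacks Ikkβ in liver parenchymal cells. TRAF2 couples TNF receptors to survival signals, caspase-8 starts apoptosis and holds back necroptosis, RIPK3 drives necroptosis, and IKKβ activates NF-κB. The arrays read RNA of whole liver, so cells without Cre, blood cells among them, are part of every value, and less RNA per cell and fewer cells of a type cannot be told apart.

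Values are log2 signals with array medians of 4.90 to 5.05, and arrays of a genotype correlated at 0.981 to 0.991. Casp8 was lower in TRAF2/Casp8 KO than in WT (log2 −0.91), Ripk3 lower in RIPK3 triple KO than in TRAF2/Casp8 KO (−1.62), and Ikbkb lower with IKKβ deleted (−0.69 against TRAF2/Casp8 KO), all with limma adjusted p under 0.05. Traf2 went against its label: it read 6.28 ± 0.08 in WT (mean and SD, n = 4) and 7.30 ± 0.16 in the arrays labelled TRAF2/Casp8 KO, and the RIPK3 (7.32) and IKKβ (6.89) triple KO arrays were above WT too (differences 1.02, 1.04 and 0.61, limma adjusted p = 2.14e-05, 1.33e-05 and 0.0426). Whether the Traf2 probe set lies in the deleted exons was not tested, and each genotype name here means the arrays so labelled. Replicate 4 of that group alone has another array-name prefix and had the lowest mean over the 65 P450 genes of all 16 arrays (6.48), and WT replicate 1 had the lowest array weight (0.461). The 7 hepatocyte markers measured lay at array means of 12.48 to 12.95, with 0 of 7 past the threshold in any comparison (unadjusted p under 0.05 for 1 in TRAF2/Casp8 KO and 2 in RIPK3 triple KO against WT). The array names hold a letter and a number that differ between the genotypes as sets (number 5 for WT and IKKβ triple KO, 7 for the others). If these are positions, which the labels do not say, position and genotype cannot be told apart.

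Over all 65 genes the signal was lower in TRAF2/Casp8 KO than in WT and nearer to WT in the RIPK3 triple KO, but few single genes passed the test. The mean over the 65 genes was 6.78, 6.86, 7.00 and 6.94 in WT, 6.73, 6.68, 6.73 and 6.48 in TRAF2/Casp8 KO, 6.90, 6.89, 6.97 and 6.84 in the RIPK3 triple KO, and 6.81, 6.81, 6.69 and 6.72 in IKKβ triple KO (replicates 1 to 4). All TRAF2/Casp8 KO arrays lay below all WT and all RIPK3 triple KO arrays, and they overlapped with IKKβ triple KO.

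In TRAF2/Casp8 KO against WT, 51 of the 65 genes had a difference below 0, with a median of −0.14, beside a median of −0.011 and 47.3% above 0 over all genes. Of the 65, 1 rose (Cyp1b1) and 3 fell (Cyp2b10, Cyp2c29 and Cyp4f14), which is 6.15%, while 3.31% of all genes were called (2.17% higher, 1.14% lower). The groups did not overlap for 12 of the 65 genes, 2 higher and 10 lower, beside 11.6% of all genes. Without replicate 4 of TRAF2/Casp8 KO the number below 0 was 48 and the number called was 2 (Cyp2b10 and Cyp2c29), and without WT replicate 3 the number called was also 2.

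In RIPK3 triple KO against TRAF2/Casp8 KO, 50 of the 65 genes had a difference above 0, with a median of 0.15 (all genes −0.002). Here 3 rose (Cyp2c29, Cyp2c70 and Cyp2f2) and 1 fell (Cyp1b1), again 6.15%, beside 0.329% of all genes (0.181% higher, 0.149% lower). The groups did not overlap for 12 genes, 11 higher and 1 lower, beside 6.87% of all genes. Both comparisons share the TRAF2/Casp8 KO arrays, so their opposite signs are not independent. Leaving out any 1 array of either group left 1 or 2 calls; without replicate 4 of TRAF2/Casp8 KO the one left was Cyp2c70, and 48 genes were above 0.

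In IKKβ triple KO against TRAF2/Casp8 KO, 40 of 65 were above 0 (median 0.05) and only Cyp1b1 passed, lower in the triple knockout (1.54%, beside 1.02% of all genes, 0.903% lower). The groups did not overlap for 4 genes (Cyp2c29, Cyp2c67 and Cyp3a44 higher, Cyp1b1 lower), beside 7.48% of all genes. Without replicate 4 of TRAF2/Casp8 KO 33 genes were above 0 and 0 passed, and 0 also passed without its replicate 1 or 3 or without IKKβ triple KO replicate 3. Against WT, the RIPK3 triple KO had 31 genes above and 34 below 0 (median −0.01), with 2 risen (Cyp2b13 and Cyp2c70) and 1 fallen (Cyp2b10), or 4.62% beside 3.11% of all genes (1.94% higher, 1.16% lower). Separate groups were seen for 8 genes, 6 of them higher, beside 9.08% of all genes.

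The IKKβ triple KO had 46 genes below 0 against WT (median −0.12) and 0 passed by limma, beside 0.0372% of all genes (0.0266% higher, 0.0106% lower); 11 of the 65 had an unadjusted p under 0.05, beside 6.45% of all genes. Separate groups were seen for 4, all lower (Cyp2b10, Cyp2c70, Cyp2d13 and Cyp4f15), beside 3.92% of all genes. Without IKKβ triple KO replicate 1 Cyp2b10 passed. Between the triple knockouts, 45 genes were lower with IKKβ deleted (median −0.07), and 2 passed (Cyp2c70 and Cyp2d13), or 3.08% beside 2% of all genes (1.38% lower). The groups did not overlap for 5 genes, Cyp2c67 higher and Cyp2a5, Cyp2c70, Cyp2d13 and Cyp2j6 lower, beside 9.01% of all genes. Without RIPK3 triple KO replicate 1, 2 or 3 or IKKβ triple KO replicate 3 the number passing was 1, and without IKKβ triple KO replicate 1 it was 4. In all, 8 of the 65 genes passed in at least 1 of 6 comparisons and 57 in none. Among the 65, 16 had a mean signal of at most 3.70, a level below which 1 in 3 probe sets lay, and none of the 8 is among them.

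**Figure D1:**
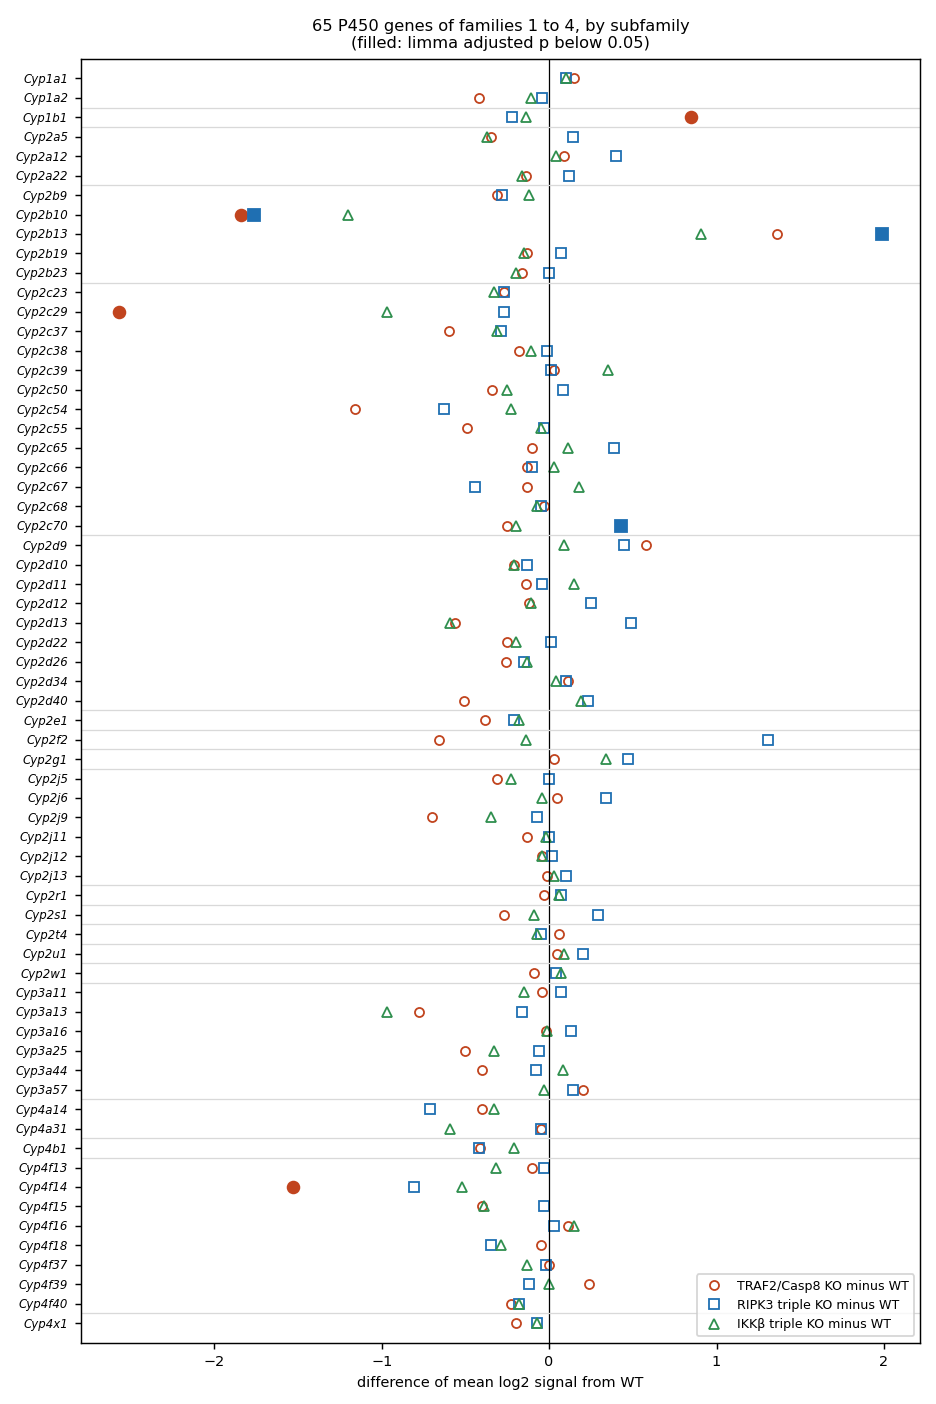
Difference of mean log2 signal from WT (x axis) for each of the 65 genes (y axis, grey lines between subfamilies) in TRAF2/Casp8 KO (circles), RIPK3 triple KO (squares) and IKKβ triple KO (triangles), n = 4 arrays per genotype and the same WT arrays in all; filled symbols have a limma adjusted p under 0.05. Most genes lie within 1 unit of 0; Cyp2c29, Cyp2b10, Cyp4f14 and Cyp2c54 reach beyond it on the negative side, and Cyp2b13 and Cyp2f2 on the positive side.

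In family 1, Cyp1b1 was the single P450 gene that rose in TRAF2/Casp8 KO. By the brighter of its 2 probe sets it was back near WT in both triple knockouts. Cyp1b1 oxidises oestrogens and polycyclic hydrocarbons and is known mainly from tissues outside the liver and from stromal cells. Its probe set (10453057, chromosome 17) read 4.11, 4.60, 4.40 and 4.61 in WT and 5.67, 4.72, 5.45 and 5.26 in TRAF2/Casp8 KO. With RIPK3 also lost it read 4.29, 4.09, 4.07 and 4.38, and in the IKKβ triple KO 4.20, 4.51, 4.09 and 4.35. All TRAF2/Casp8 KO arrays lay above the 12 others, replicate 2 by the least.

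Cyp1b1 was 1.80-fold higher in TRAF2/Casp8 KO than in WT (log2 0.85 ± 0.18 SE, limma adjusted p = 0.0189). It was 2.10-fold lower in RIPK3 triple KO than in TRAF2/Casp8 KO (log2 −1.07 ± 0.18, adjusted p = 0.0178) and 1.98-fold lower in IKKβ triple KO (log2 −0.99 ± 0.18, adjusted p = 0.0147). The difference between the triple knockouts was 0.08 with a 95% interval of −0.29 to 0.46. Leaving out TRAF2/Casp8 KO replicate 1, 3 or 4 ended all 3 calls, as did a model of only the 2 genotypes compared; leaving out WT replicate 3, RIPK3 triple KO replicate 2 or 3, or IKKβ triple KO replicate 3 ended the call of the comparison it enters (adjusted p up to 0.0764 over single arrays; 0.0543, 0.07 and 0.0519 without TRAF2/Casp8 KO replicate 4, with the differences at 0.85, −1.07 and −0.99). A second Cyp1b1 probe set with a mean of 3.17 gave 0.37 (limma adjusted p = 0.178), −0.39 (0.296) and −0.07 (0.939), so the 2 probe sets differ in the size of all 3 differences. It read 3.01 in WT, 3.38 in TRAF2/Casp8 KO and 3.31 in IKKβ triple KO. At this probe set IKKβ triple KO differed from WT by 0.30 (limma adjusted p = 0.77). Neither that difference nor the one of TRAF2/Casp8 KO was called. Whether its signal was back near WT with IKKβ deleted therefore cannot be told. Its mean also lies under 3.70, where small differences show poorly.

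The 7 stellate markers, which include collagen genes, had array means of 8.40 to 8.83 in WT and 8.67 to 8.79 in TRAF2/Casp8 KO, 8.65 to 8.81 in RIPK3 triple KO and 8.38 to 8.63 in IKKβ triple KO. In TRAF2/Casp8 KO against WT 6 of 7 were above 0 (median 0.18, 0 called, 1 at an unadjusted p under 0.05), and in IKKβ triple KO against TRAF2/Casp8 KO 1 of 7 was (median −0.28, 0 called, 2 at an unadjusted p under 0.05). The 6 cholangiocyte markers had array means of 4.94 to 5.23 in WT, 5.90 to 6.04 in TRAF2/Casp8 KO, 5.57 to 5.86 in RIPK3 triple KO and 4.98 to 5.63 in IKKβ triple KO, with 4 of 6 risen in TRAF2/Casp8 KO (Sox9, Cldn7, Cldn4 and Epcam), 1 of 6 lower in RIPK3 triple KO and 3 of 6 lower in IKKβ triple KO, both against TRAF2/Casp8 KO. Their part in the Cyp1b1 difference was not tested. The Cyp1a genes, the classical targets of the aryl hydrocarbon receptor, did not pass: Cyp1a2, which oxidises caffeine and is a pericentral enzyme, differed by −0.42 ± 0.19 in TRAF2/Casp8 KO (adjusted p = 0.334), and Cyp1a1 had group means of 2.79 to 2.94.

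In the Cyp2b subfamily, Cyp2b10 fell and the adjacent member Cyp2b13 rose in the RIPK3 triple KO against WT, and Cyp2b10 also fell in TRAF2/Casp8 KO. Cyp2b10 is the prototype target of CAR, and Cyp2b13 is female-biased in adult liver. Cyp2b10 (probe set 10551197) read 6.52, 6.20, 6.42 and 6.02 in WT and 4.26, 4.87, 4.38 and 4.30 in TRAF2/Casp8 KO. It read 4.29, 4.13, 4.90 and 4.82 in RIPK3 triple KO and 5.68, 4.82, 4.84 and 5.02 in IKKβ triple KO. Each of the 12 knockout arrays lay below each WT array, and the highest of them was IKKβ triple KO replicate 1.

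Cyp2b10 fell 3.58-fold in TRAF2/Casp8 KO (log2 −1.84 ± 0.22, limma adjusted p = 0.000231) and 3.38-fold in RIPK3 triple KO (log2 −1.76 ± 0.22, 0.00041) against the same WT arrays. In IKKβ triple KO the difference from WT was −1.20 ± 0.22 (adjusted p = 0.103), which passed without IKKβ triple KO replicate 1 (−1.40, 0.0352). The RIPK3 triple KO differed from TRAF2/Casp8 KO by 0.08 (95% interval −0.38 to 0.55), an interval that does not reach the size of the fall. The calls against WT in TRAF2/Casp8 KO and RIPK3 triple KO held without any 1 array (−1.79 without TRAF2/Casp8 KO replicate 4).

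Cyp2b13 (probe set 10551209) read 5.82, 6.52, 7.65 and 6.96 in WT and 8.33, 8.73, 8.16 and 7.17 in TRAF2/Casp8 KO. It read 8.99, 8.89, 9.17 and 7.85 in RIPK3 triple KO and 8.07, 7.06, 7.70 and 7.77 in IKKβ triple KO. RIPK3 triple KO lay above WT in all arrays, while WT replicate 3 overlapped with the other 2 knockouts. The rise in RIPK3 triple KO was 3.97-fold (log2 1.99 ± 0.40, limma adjusted p = 0.0172) and lost its call without WT replicate 2 or RIPK3 triple KO replicate 1 or 3 (up to 0.0577) and in a model of the 2 genotypes alone (0.068). In TRAF2/Casp8 KO the difference was 1.36 ± 0.40 (adjusted p = 0.104) and in IKKβ triple KO 0.91 ± 0.40 (0.773).

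Cyp2b9, the near copy of Cyp2b13 in the window shown above and also female-biased in adults, had a mean of 12.23 ± 0.16 in WT and 11.92 ± 0.19 in TRAF2/Casp8 KO, a difference of −0.31 ± 0.12 (limma adjusted p = 0.259). The differences of RIPK3 and IKKβ triple KO from WT were −0.28 (0.33) and −0.12 (0.925). Cyp2b23 differed by −0.16 in TRAF2/Casp8 KO (adjusted p = 0.621), and Cyp2b19, a gene known from skin, had group means of 2.90 to 3.11. Array probes of near-identical genes can take up each other's RNA, so the values of Cyp2b9 and Cyp2b13 may not be fully separate. The 14 members on chromosome 7 lie, in RefSeq's gene order, with Cyp2b10, Cyp2b13 and Cyp2b9 in a row among the members, then Cyp2b23, Cyp2b19, Cyp2g1, the Cyp2a genes and Cyp2f2.

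**Figure D2:**
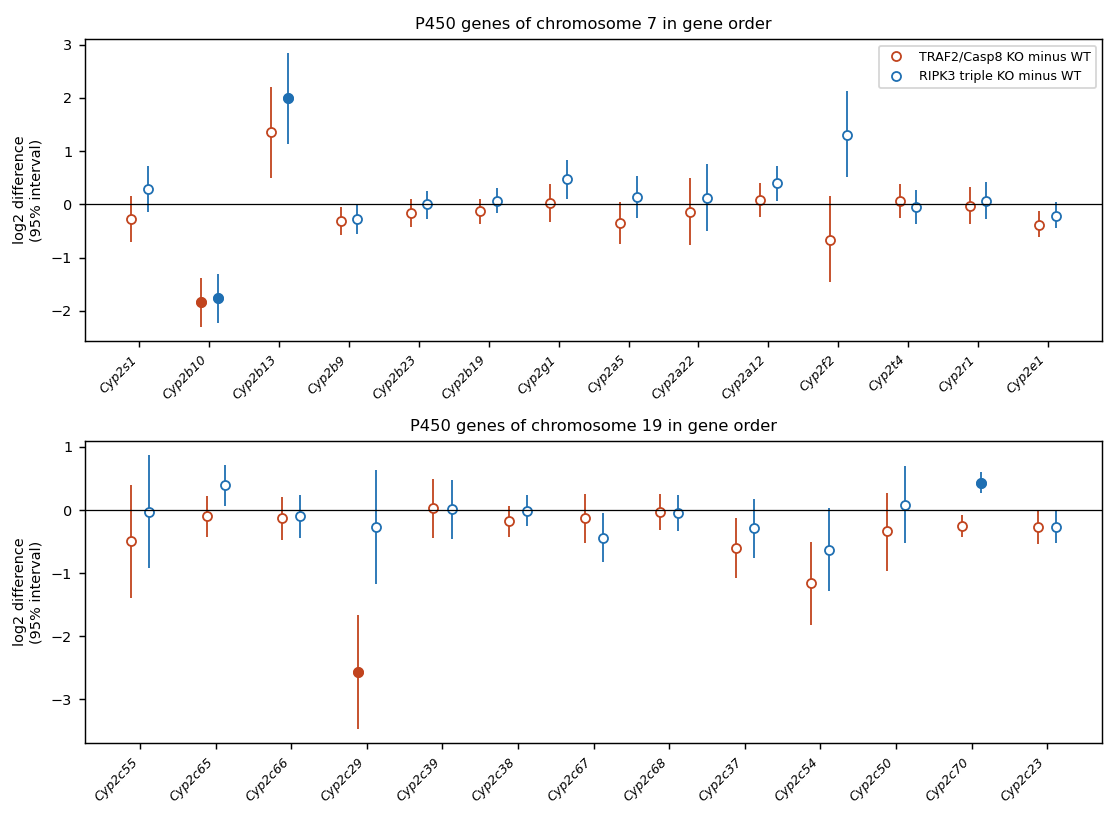
Log2 difference from WT with its 95% interval (y axis) for the 14 members on chromosome 7 and the 13 on chromosome 19, in gene order and not to scale (x axis), in TRAF2/Casp8 KO (red) and RIPK3 triple KO (blue), n = 4 per genotype; filled points have a limma adjusted p under 0.05. Cyp2b10 at −1.84 and −1.76 stands next to Cyp2b13 at 1.36 and 1.99, and on chromosome 19 Cyp2c29 at −2.57 in TRAF2/Casp8 KO stands apart from its neighbours.

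The Cyp2c subfamily, 13 genes on chromosome 19, held the largest difference of the 65 genes. Cyp2c29 is an epoxygenase of fatty acids and a pericentral target of CAR and PXR. It fell in TRAF2/Casp8 KO and was near WT in RIPK3 triple KO. Its probe set (10463027) read 9.08, 8.42, 8.68 and 8.03 in WT and 6.64, 6.14, 6.28 and 4.87 in TRAF2/Casp8 KO. It read 8.48, 8.57, 7.79 and 8.28 in RIPK3 triple KO and 7.73, 8.82, 6.75 and 7.06 in IKKβ triple KO. All TRAF2/Casp8 KO arrays lay below the 12 others, replicate 4 lowest, and the IKKβ triple KO arrays spread from near that group up to WT.

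Cyp2c29 was 5.94-fold lower in TRAF2/Casp8 KO than in WT (log2 −2.57 ± 0.42, limma adjusted p = 0.00379), a call that held without any 1 array; without TRAF2/Casp8 KO replicate 4 the difference was −2.20 (0.0125). RIPK3 triple KO was 4.91-fold above TRAF2/Casp8 KO (log2 2.30 ± 0.42, adjusted p = 0.0374). That call held only without TRAF2/Casp8 KO replicate 1 among the 8 arrays left out in turn (adjusted p up to 0.119, with 1.93 without TRAF2/Casp8 KO replicate 4) and was lost in a model of the 2 genotypes alone (0.0755). IKKβ triple KO differed from TRAF2/Casp8 KO by 1.61 (95% interval 0.70 to 2.51, adjusted p = 0.133), and the triple knockouts from each other by −0.69 (−1.59 to 0.21, adjusted p = 0.483). From WT, RIPK3 triple KO differed by −0.27 (95% interval −1.18 to 0.63), which does not exclude a change of about 2-fold.

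Cyp2c70, the enzyme that makes muricholic acids from chenodeoxycholic acid in mice, rose in RIPK3 triple KO against each other genotype. Its probe set (10467410) read 11.07, 11.00, 11.18 and 11.07 in WT and 10.82, 10.89, 10.95 and 10.67 in TRAF2/Casp8 KO. It read 11.39, 11.50, 11.64 and 11.54 in RIPK3 triple KO and 10.83, 10.92, 10.88 and 10.88 in IKKβ triple KO. The RIPK3 triple KO arrays lay above the 12 others and the WT arrays above the remaining 8, within a narrow spread (SD 0.04 to 0.12).

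Cyp2c70 was 1.61-fold higher in RIPK3 triple KO than in TRAF2/Casp8 KO (log2 0.68 ± 0.08, limma adjusted p = 0.000716), 1.35-fold higher than in WT (0.43 ± 0.08, 0.00842), and 1.56-fold higher than in IKKβ triple KO (IKKβ minus RIPK3 −0.64 ± 0.08, 0.000755). All 3 calls held without any 1 array (0.63 against TRAF2/Casp8 KO without its replicate 4), and that against WT was lost in a model of the 2 genotypes alone (0.0672). The differences of TRAF2/Casp8 KO (−0.25, adjusted p = 0.13) and IKKβ triple KO (−0.20, 0.74) from WT did not pass. The 8 neutrophil markers had array means of 6.97 to 8.99 in the same RIPK3 triple KO arrays, beside 8.77 to 10.18 in WT, 8.37 to 9.72 in TRAF2/Casp8 KO and 8.66 to 9.67 in IKKβ triple KO; 0 of 8 passed in any comparison by limma, though 6 against TRAF2/Casp8 KO and 8 against WT had an unadjusted p under 0.05 in RIPK3 triple KO. In IKKβ against RIPK3 triple KO 8 of 8 neutrophil markers were above 0 (median 1.13), with 7 at an unadjusted p under 0.05. These marker values stand beside Cyp2d13 and Cyp2f2 as well, and their part in the differences was not tested.

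Of the other 11 Cyp2c genes none passed in any comparison. In TRAF2/Casp8 KO 12 of all 13 were below 0 (median −0.25); in RIPK3 triple KO against TRAF2/Casp8 KO 10 of 13 were above 0 (median 0.30), and in IKKβ triple KO 11 of 13 (median 0.21), both against the same TRAF2/Casp8 KO arrays. Cyp2c54, an epoxygenase, differed by −1.16 ± 0.31 in TRAF2/Casp8 KO (limma adjusted p = 0.0685). It read 7.06 to 7.55 in WT and 6.71, 6.10, 6.55 and 5.31 in TRAF2/Casp8 KO, so the groups did not overlap. Cyp2c37 differed by −0.60 ± 0.22 (adjusted p = 0.216). Cyp2c38, Cyp2c39, Cyp2c65 and Cyp2c66 had means over all arrays of 2.03 to 3.30, and their differences from WT lay between −0.18 and 0.39 in all 3 knockouts.

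**Figure D3:**
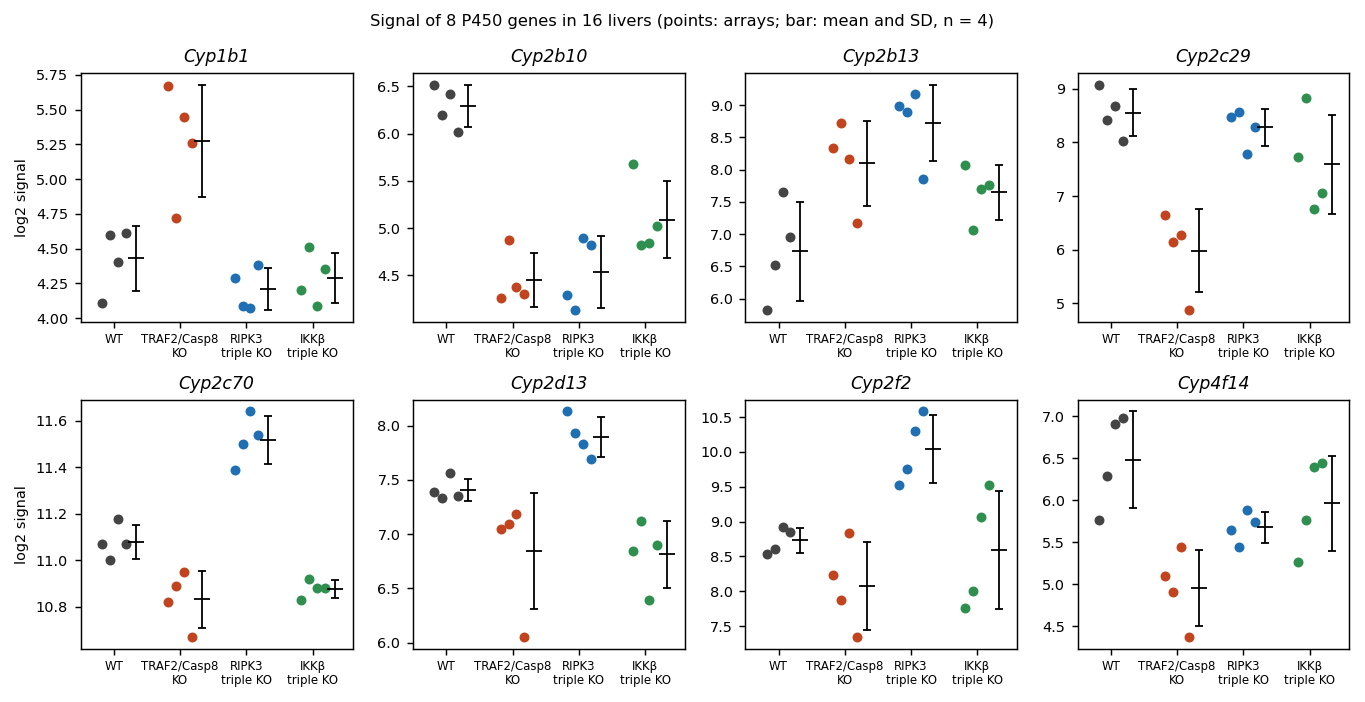
Log2 signal (y axis, a scale per panel that does not start at 0) of the 8 P450 genes that passed in at least 1 comparison, in the 4 genotypes (x axis); points are arrays and the bar beside them is the mean with the SD, n = 4. All TRAF2/Casp8 KO arrays lie above the other 12 for Cyp1b1 and below them for Cyp2c29, there close to the lowest IKKβ triple KO array (6.64 and 6.75), while Cyp2b10 is below WT in all knockouts and Cyp2c70, Cyp2d13 and Cyp2f2 are highest on average in RIPK3 triple KO.

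Cyp2d13 was the single Cyp2d gene that passed. As a transcribed pseudogene it makes no known enzyme. Its probe set (10430883, chromosome 15) read 7.39, 7.33, 7.56 and 7.35 in WT and 7.05, 7.09, 7.19 and 6.05 in TRAF2/Casp8 KO. It read 8.13, 7.93, 7.83 and 7.69 in RIPK3 triple KO and 6.84, 7.12, 6.39 and 6.90 in IKKβ triple KO. RIPK3 triple KO lay above WT and WT above both other genotypes in all arrays.

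The fall from RIPK3 to IKKβ triple KO was 2.12-fold (log2 −1.08 ± 0.21, limma adjusted p = 0.022), and it lost its call without RIPK3 triple KO replicate 1, 2 or 3 or IKKβ triple KO replicate 3 or 4 (up to 0.0636). Against TRAF2/Casp8 KO, RIPK3 triple KO differed by 1.05 ± 0.21 (adjusted p = 0.062), and by 0.78 without TRAF2/Casp8 KO replicate 4. A Cyp2d pseudogene shares sequence with its neighbours, and the probe set may also take up their RNA. Over the 9 Cyp2d genes 7 were below 0 in TRAF2/Casp8 KO (median −0.21). Cyp2d9, the male-biased testosterone 16α-hydroxylase, was 1 of the 2 above: it differed by 0.58 ± 0.17 (adjusted p = 0.113), with 7.62 to 8.52 in WT and 8.59 to 8.97 in TRAF2/Casp8 KO. Cyp2d26 differed by −0.26 ± 0.08 (adjusted p = 0.151), also without overlap.

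Cyp2f2, the periportal P450 that activates naphthalene, was highest in RIPK3 triple KO. Its probe set (10551293, chromosome 7) read 8.54, 8.61, 8.92 and 8.85 in WT and 8.23, 7.87, 8.84 and 7.34 in TRAF2/Casp8 KO. It read 9.52, 9.76, 10.30 and 10.58 in RIPK3 triple KO and 7.76, 8.00, 9.06 and 9.53 in IKKβ triple KO. RIPK3 triple KO lay above WT and TRAF2/Casp8 KO in all arrays, and IKKβ triple KO reached it with replicate 4.

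Against TRAF2/Casp8 KO the rise was 3.91-fold (log2 1.97 ± 0.38, limma adjusted p = 0.0448), but of the 8 arrays left out in turn it held only without TRAF2/Casp8 KO replicate 3 (adjusted p up to 0.166; log2 1.73 without replicate 4), and a model of the 2 genotypes alone gave 0.101. In the main model the difference from WT did not pass (1.31 ± 0.38, limma adjusted p = 0.0952). It passed in a model of the 2 genotypes alone (0.0366). The difference of IKKβ from RIPK3 triple KO did not pass in the main model either (−1.45 ± 0.38, 0.074). Both passed when 1 probe set per gene was tested (0.0443 and 0.032). The periportal genes other than P450 measured here (10 of 14 listed) had 0 members called in RIPK3 triple KO against TRAF2/Casp8 KO, with 7 of 10 above 0, 4 at an unadjusted p under 0.05 and a median of 0.23. The pericentral ones (13 of 14) had 0 called, 11 of 13 above 0, 4 at an unadjusted p under 0.05 and a median of 0.11. In RIPK3 triple KO against WT 3 of 13 pericentral genes were above 0 (median −0.14), and the one that passed, the glutamate transporter gene Slc1a2, rose (1.32, limma adjusted p = 0.00389). Of the periportal genes 7 of 10 were above 0 there (median 0.23), and 1 rose, Hsd17b13 (0.34, 0.05 when rounded). Between the triple knockouts Slc1a2 was lower with IKKβ deleted (−1.23, 0.00951), and 1 of 10 periportal genes was above 0 (median −0.29, 0 called, 3 at an unadjusted p under 0.05). In TRAF2/Casp8 KO against WT 1 pericentral gene fell, Rgn, which encodes regucalcin (−1.04, limma adjusted p = 0.00348), and the median was −0.16. Of the periportal genes Cdh1 (E-cadherin, 0.65, 0.0107) and Hsd17b13, a lipid droplet protein (0.41, 0.019), rose and the histidine-degrading Hal fell (−1.56, 0.0196), with a median of −0.01.

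The remaining family 2 genes did not pass in any comparison. Cyp2e1, the pericentral enzyme that oxidises ethanol and paracetamol, read 12.75 to 12.93 in WT and 12.54, 12.57, 12.63 and 12.14 in TRAF2/Casp8 KO. These groups do not overlap, yet the difference of −0.38 ± 0.11 missed the threshold (limma adjusted p = 0.114). In the Cyp2a subfamily, whose best-known member Cyp2a5 oxidises coumarin and nicotine, Cyp2a5 differed by −0.35 ± 0.19 (0.435) and Cyp2a12 by 0.09 ± 0.15 (0.862) in TRAF2/Casp8 KO. All 3 Cyp2a genes and all 6 Cyp2j genes, which are arachidonic acid epoxygenases, were above 0 in RIPK3 triple KO against TRAF2/Casp8 KO, with medians of 0.31 and 0.21; 0 were called and 1 in each subfamily had an unadjusted p under 0.05. Cyp2j6 lay above both WT and TRAF2/Casp8 KO in all RIPK3 triple KO arrays (7.93 to 8.25, against 7.49 to 7.87 and 7.67 to 7.92), by 0.34 (0.117) and 0.29 (0.351). Cyp2j9 differed by −0.70 ± 0.34 (0.383) and Cyp2j11 by −0.13 ± 0.07 (0.452) in TRAF2/Casp8 KO against WT. The sole members of Cyp2g, Cyp2r, Cyp2s, Cyp2t, Cyp2u and Cyp2w differed by −0.27 to 0.06 there; Cyp2r1, a vitamin D 25-hydroxylase, differed by −0.03.

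In family 3, whose Cyp3a enzymes take the widest range of drugs and steroids, 0 of 6 genes passed in any comparison by limma; 2 had an unadjusted p under 0.05 in TRAF2/Casp8 KO against WT. Against WT 5 of 6 were below 0 in TRAF2/Casp8 KO (median −0.22). Cyp3a25 read 11.07 to 11.64 in WT and 10.76 to 11.03 in TRAF2/Casp8 KO, without overlap, a difference of −0.50 ± 0.18 (limma adjusted p = 0.212). Cyp3a44 differed by −0.40 ± 0.16 (0.27). Cyp3a11, the main PXR target, differed by −0.04 (0.922). The probe sets that carry Cyp3a11, Cyp3a41a, Cyp3a41b and Cyp3a44 together, which are not among the 65, differed by −0.59 (0.0614) and −0.61 (0.0564). In RIPK3 triple KO they differed from WT by −0.57 (limma adjusted p = 0.0723) and −0.56 (0.0823). From TRAF2/Casp8 KO they differed there by only 0.02 and 0.05.

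In family 4, Cyp4f14 fell and the 11 others did not pass in any comparison. Cyp4f14 inactivates leukotriene B4 by hydroxylation. Its probe set (10449940, chromosome 17) read 5.76, 6.29, 6.90 and 6.98 in WT and 5.10, 4.91, 5.44 and 4.37 in TRAF2/Casp8 KO. It read 5.64, 5.44, 5.88 and 5.74 in RIPK3 triple KO and 5.26, 5.76, 6.40 and 6.44 in IKKβ triple KO. TRAF2/Casp8 KO lay below WT and, by less than the rounding for its replicate 3, below RIPK3 triple KO, and it overlapped with IKKβ triple KO.

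The fall against WT was 2.88-fold (log2 −1.53 ± 0.30, limma adjusted p = 0.0142) and lost its call when any of WT replicate 3, WT replicate 4 and TRAF2/Casp8 KO replicate 4 was left out (up to 0.0551; −1.33 without the last), and in a model of the 2 genotypes alone (0.0582). RIPK3 triple KO differed from TRAF2/Casp8 KO by 0.72 ± 0.30 (adjusted p = 0.443) and IKKβ triple KO by 1.01 ± 0.30 (0.212). Cyp4f15 differed by −0.40 ± 0.12 in TRAF2/Casp8 KO (0.121) and Cyp4f40 by −0.23 ± 0.11 (0.36). The PPARα targets Cyp4a14 and Cyp4a31, fatty acid ω-hydroxylases, differed by −0.40 (0.458) and −0.05 (0.951). The RIPK3 triple KO differed from WT in Cyp4a14 by −0.71 (0.12), with groups that did not overlap. Cyp4b1 differed by −0.41 (0.466) and Cyp4x1, which is known from brain, had a mean over all arrays of 3.03.

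Members were also grouped by the receptor that induces them in adult liver. The 10 measured genes of the CAR and PXR list all had lower signals in TRAF2/Casp8 KO than in WT, beside 51 of all 65. Of the 10, 2 fell, beside 3.31% of all genes called and 1.14% lower. The list names 11 genes, of which 10 were measured: Cyp2b10, Cyp2c29, Cyp2c37, Cyp2c50, Cyp2c54, Cyp2c55, Cyp2a5, Cyp3a11, Cyp3a13 and Cyp3a25. In the whole subfamilies 4 of 5 Cyp2b, 12 of 13 Cyp2c and 5 of 6 Cyp3a genes were below 0 against WT. Those above 0, Cyp2b13 (1.36), Cyp2c39 (0.03) and Cyp3a57 (0.20), are not on the list. The mean over the 10 measured genes of the list was 8.55, 8.32, 8.66 and 8.49 in WT. In TRAF2/Casp8 KO it was 7.89, 7.62, 7.84 and 7.19. It was 8.18, 8.22, 8.25 and 8.19 in RIPK3 triple KO, and 8.15, 8.34, 7.81 and 7.78 in IKKβ triple KO. TRAF2/Casp8 KO lay below WT and below RIPK3 triple KO in all arrays, RIPK3 triple KO lay below WT, and IKKβ triple KO overlapped with all 3.

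All 10 were below 0 in TRAF2/Casp8 KO against WT (median −0.55, Cyp2b10 and Cyp2c29 fallen), and this count was 10 without replicate 4 as well. The 6 cholangiocyte markers had a median of 1.05 in the same comparison, with 4 risen. In RIPK3 triple KO against the same TRAF2/Casp8 KO arrays all 10 were above 0 (median 0.45, 1 risen). In that comparison the cholangiocyte markers had a median of −0.16 (1 of 6 lower), the neutrophil markers −0.98 (0 of 8 called) and the 6 T and NK cell markers −0.45, with 0 of 6 above 0 and 1 fallen, the granzyme gene Gzma (−0.62, limma adjusted p = 0.0383). Their part in the differences of the P450 genes was not tested. Against WT, 7 of 10 were below 0 in RIPK3 triple KO (median −0.11, 1 fallen) and all 10 with IKKβ deleted (median −0.32, 0 called, 3 at an unadjusted p under 0.05). The 18 P450 genes of families 5 and above, which serve mainly sterols and bile acids, had a median of −0.03 in TRAF2/Casp8 KO with 0 called and 4 at an unadjusted p under 0.05. In RIPK3 triple KO against WT 1 rose, Cyp7b1, an oxysterol hydroxylase (0.95, limma adjusted p = 0.05 when rounded, just under the threshold).

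**Figure D4:**
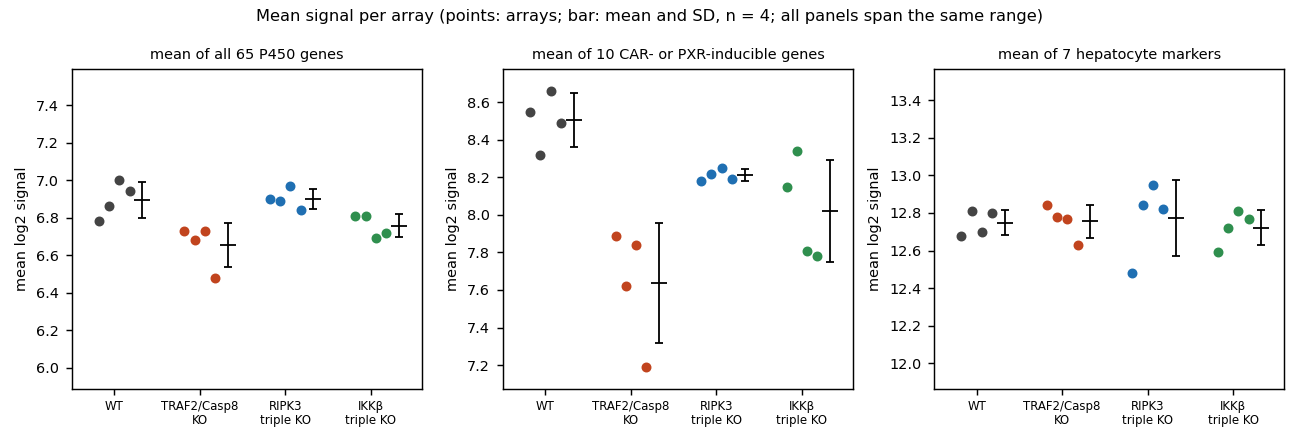
Mean log2 signal per array (y axis, each panel spanning the same range) of all 65 P450 genes, of 10 genes inducible through CAR or PXR, and of 7 hepatocyte markers, in the 4 genotypes (x axis); points are arrays, the bar is the mean with the SD, n = 4. In the first 2 panels TRAF2/Casp8 KO lies below WT and RIPK3 triple KO, and in the last the genotypes overlap, at 12.48 to 12.95.

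Of a list of receptors for foreign compounds and lipids and their partners, 16 of 19 genes were measured. The gene of CAR, Nr1i3, was not among those measured. The list is not limited to activators of P450 genes. Of the 16, 2 fell and 1 rose in TRAF2/Casp8 KO, beside 1.14% of all genes lower and 2.17% higher. Rxra, the shared partner of CAR, PXR and PPARα, fell by 0.47 on the log2 scale (9.15 ± 0.07 against 9.62 ± 0.07 in WT, limma adjusted p = 0.0042). Nr0b2, the repressor SHP that bile acids induce, fell by 0.81 (0.0193), and Nfe2l2, the oxidative stress factor NRF2, rose by 1.12 (0.0316). The median of the 16 was −0.14. The PXR gene Nr1i2, named for its role after its values were seen, differed by −0.26 (0.362).

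In RIPK3 triple KO against TRAF2/Casp8 KO 0 of 16 passed and 5 had an unadjusted p under 0.05, with 14 above 0 and a median of 0.20; the smallest p-values were those of Nr1h4, which encodes the bile acid receptor FXR (0.34, adjusted p = 0.281), and Stat5a, a mediator of growth hormone (0.30, 0.322). Arnt, the partner of the aryl hydrocarbon receptor, was higher in RIPK3 triple KO than in WT (0.33, adjusted p = 0.05 when rounded, just under the threshold) and lower in IKKβ than in RIPK3 triple KO (−0.35, 0.0457). Of the other hepatocyte transcription factors measured (11 of 14), Nr5a2, which encodes LRH-1, a regulator of bile acid synthesis, was the one that passed. It rose by 0.72 in TRAF2/Casp8 KO (0.00156) and by 0.73 in RIPK3 triple KO (0.00155), and was lower in IKKβ than in RIPK3 triple KO (−0.49, 0.0347).

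Among 15 of 18 listed genes of electron supply and haem metabolism, on which all P450 proteins depend, 2 fell in TRAF2/Casp8 KO. Alas1, the first and limiting enzyme of haem synthesis in hepatocytes, fell by 0.86 (limma adjusted p = 0.0273) and Blvrb by 0.35 (0.0465). Of the same 15 genes 4 were lower in RIPK3 triple KO than in WT: Alas1 (−0.93, 0.0185), Blvrb (−0.42, 0.0181) and the haem synthesis genes Alad (−1.16, 0.0143) and Cpox (−0.52, 0.0256). Alad was higher in IKKβ than in RIPK3 triple KO (1.44, 0.00586). Red cell precursors of newborn liver also make haem, and the 5 erythroid markers measured had array means of 7.71 to 8.43 in WT, 6.99 to 8.24 in TRAF2/Casp8 KO, 6.72 to 8.32 in RIPK3 triple KO and 7.04 to 8.50 in IKKβ triple KO, with 0 called and 1 at an unadjusted p under 0.05 in TRAF2/Casp8 KO and in RIPK3 triple KO against WT. Their part in the haem gene differences was not tested.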

How the data were processed

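RNA of 16 livers was hybridised to one-colour Affymetrix whole-transcript arrays, 1 per mouse. The deposited values are log2 signals that the authors made with RMA, per the submitters' processing notes; the RMA version and how probe sets were defined is not given in the sources used here. Values between 0.89 and 13.65 show the base of the log. They were used as deposited and unfiltered, with a test of each of 35556 probe sets, and genes were named through the platform annotation (21218 probe sets with 1 symbol, 1881 with several, 12457 with none). All 65 members matched RefSeq by gene ID, and 0 of their symbols differed.

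The 4 genotypes were fitted over all 16 arrays with limma 3.58.1 in R 4.3.3 (lmFit, eBayes without trend, two-sided), with Benjamini-Hochberg adjustment over all probe sets and a threshold of 0.05. "Rose", "fell" and "called" mean past it. The procedure was tested on simulated data. The members and lists were chosen with earlier results of these data known. Named in full were members past the threshold in any of 6 comparisons, and as values up to 2 others of each subfamily with 3 or more members, those with the smallest p in TRAF2/Casp8 KO against WT, beside sole members of subfamilies. Further members, among them Cyp2b19, Cyp2j6 and Cyp3a11, were named outside this rule. Of each gene list up to 4 members past the threshold were named, or up to 2 as values. Motif searches and alignments used Python 3.11.15 and Biopython 1.88, and figures matplotlib 3.10.9. The number of arrays limits the precision.

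The alternatives tried were robust eBayes with an intensity trend, the 2 genotypes compared alone, leaving out probe sets with a mean of at most 3.70, a second quantile normalisation, centring on array medians, 1 probe set per gene, the mean of a gene's probe sets, array weights, a replicate block, the row in the array name as a random block, and leaving out each array. The main fit did not pair mice by replicate number. The correlations of same-numbered arrays lay between −0.102 and 0.159 over 24 pairs of groups and numbers, with 4 above 0.1. Such correlations cannot tell whether same-numbered mice were paired.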

Additional observations from a re-analysis of the deposited data

Results flagged for a closer look

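TRAF2/Casp8 KO replicate 4 stood apart from its group for Cyp2d13, at 6.05 where the others read 7.05 to 7.19. It was the only such case among 36 sets of 4 arrays tested (the 8 genes called in any comparison and the mean of all 65, in each genotype), a test that chance passes in about 1 of 20. Its mean over the 65 P450 genes was the lowest too, and its erythroid (8.24) and neutrophil (9.72) marker means were the highest of its group.

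The effect added to the TRAF2/Casp8 KO background differed between the triple knockouts for Cyp2c70 (IKKβ minus RIPK3 −0.64, limma adjusted p = 0.000755) and Cyp2d13 (−1.08, 0.022). For both genes all 4 RIPK3 triple KO arrays lay above all 4 IKKβ triple KO arrays.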

How the results depend on the processing

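None of the 8 genes called in the main fit changed direction under any alternative while called. The other 57 genes were not checked for this. A model of only the 2 genotypes compared left 2 calls in TRAF2/Casp8 KO against WT, 1 in RIPK3 triple KO against TRAF2/Casp8 KO and 0 in IKKβ triple KO against TRAF2/Casp8 KO; it holds fewer arrays. With 1 probe set per gene, with the mean of a gene's probe sets and with array weights, IKKβ triple KO had 2 calls against TRAF2/Casp8 KO and 1 against WT; the first 2 of these test fewer features. Leaving out each array in turn gave 2 to 4 calls in TRAF2/Casp8 KO against WT, 1 to 2 in RIPK3 triple KO against TRAF2/Casp8 KO, 0 to 1 in IKKβ triple KO against TRAF2/Casp8 KO, 2 to 4 and 0 to 1 in RIPK3 and IKKβ triple KO against WT, and 1 to 4 between the triple knockouts. Over the 8 genes called in any comparison, a call was lost 38 times and gained 2 times when an array was left out. Each gene, comparison and left-out array counts separately here, so the same difference can count more than once. With 1 probe set per gene, calls were gained among the same 8 genes. Against TRAF2/Casp8 KO these were Cyp2d13 in RIPK3 triple KO (limma adjusted p = 0.0211) and Cyp2c29 in IKKβ triple KO (0.0471). Against WT they were Cyp2b13 in TRAF2/Casp8 KO (0.0432), Cyp2b10 in IKKβ triple KO (0.0194) and Cyp2f2 in RIPK3 triple KO (0.0443). Between the triple knockouts Cyp2f2 gained a call (0.032). The counts of genes above or below 0, recomputed as alternatives chosen after seeing the data, stayed within 1.5 times in every setting run.

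With the replicate number as a block the counts of calls were 4, 3 and 1 in the comparisons of TRAF2/Casp8 KO with WT and of RIPK3 and IKKβ triple KO with TRAF2/Casp8 KO, 3 and 0 in RIPK3 and IKKβ triple KO against WT, and 2 between the triple knockouts; Cyp1b1 in RIPK3 triple KO lost its call (0.0606) and 3 of 16 arrays correlated best with their own number. Signals of at most 3.70, where 16 of the 65 genes lie, show small differences poorly.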
